A study of Mus musculus with 12 samples.

Results

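The 9 genes described here make, take up, bind, sense and degrade retinoic acid, the active form of vitamin A. They were chosen by name and found in the deposited table by their NCBI Gene IDs, and all 9 were present among its 22221 rows. They are Aldh1a1 (Gene ID 11668, chromosome 19), Aldh1a2 (19378, chromosome 9), Aldh1a3 (56847, chromosome 7), Rdh10 (98711, chromosome 1), Cyp26a1 (13082, chromosome 19), Cyp26b1 (232174, chromosome 6), Crabp1 (12903, chromosome 9), Stra6 (20897, chromosome 9) and Rara (19401, chromosome 11).

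Testis RNA of the outbred ICR mouse stock was read in 12 RNA-seq libraries, 3 in each of 4 groups. IMA10 mice received busulfan, then gut microbiota of donors given alginate oligosaccharide at 10 mg/kg body weight. IMC mice received busulfan, then gut microbiota of donors given water. Sa mice received busulfan, then saline. Con mice were untreated. Busulfan alkylates DNA and depletes proliferating germ cells. It was given once at 3 weeks of age, so IMA10, IMC and Sa share it and Con lacks it. The transfer of microbiota lasted 2 weeks, and 3 more weeks passed before the testes were taken. The labels do not give the busulfan dose, the age of the Con mice, or whether each library is a separate animal, so p-values reflect the spread among these libraries alone, and that spread may be technical. The study's text mentions culture of the testis without naming such a step.

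Retinol enters cells through the receptor STRA6, is oxidised to retinaldehyde by RDH10, and is then oxidised irreversibly to retinoic acid by the ALDH1A enzymes. CRABP1 binds retinoic acid in the cytosol, CYP26 enzymes degrade it, and RARA is one of the nuclear receptors through which it acts. In the testis retinoic acid drives spermatogonia to differentiate and to enter meiosis. In the adult mouse testis Aldh1a1 is known mainly from Sertoli and Leydig cells and Aldh1a2 from germ cells, and Cyp26b1 from somatic cells.

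Retinoic acid also acts on genes of its own pathway through paired short motifs in their promoters. The usual form is a direct repeat with a 5-base spacer, searched here on both strands with 5 bases between its motifs and called DR5. A match needed AGGTCA on each side, where AGTTCA could also stand on either side, as could GGGTCA and the motif GGTTCA. It is known from Cyp26a1 and from the receptor gene Rarb. RefSeq promoter windows (GRCm38.p6) were at hand for 7 of the 9 genes, in 14 windows of 250 bases before a start site. The 150 bases before the start are shown, 5′ to 3′ on the gene's strand, for the 2 genes with a DR5, for the abundant breakdown gene Cyp26b1, and for the most abundant synthesis isozymes, Aldh1a1 and Aldh1a2. Capitals mark the DR5 in the first pair, TATAAA in Cyp26b1, and CCAAT in both Aldh1a genes.
Cyp26a1, chr19:37697658-37697807, + strand: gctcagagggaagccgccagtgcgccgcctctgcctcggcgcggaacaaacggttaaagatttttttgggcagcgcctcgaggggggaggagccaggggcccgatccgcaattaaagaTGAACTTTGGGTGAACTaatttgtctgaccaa
Rarb, chr14:16575477-16575626, − strand: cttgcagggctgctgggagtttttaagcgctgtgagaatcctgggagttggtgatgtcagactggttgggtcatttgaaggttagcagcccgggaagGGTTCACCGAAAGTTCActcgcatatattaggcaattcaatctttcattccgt
Cyp26b1, chr6:84593811-84593960, − strand: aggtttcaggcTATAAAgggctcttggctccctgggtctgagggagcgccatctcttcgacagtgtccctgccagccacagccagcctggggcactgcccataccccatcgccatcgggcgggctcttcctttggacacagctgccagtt
Aldh1a1, chr19:20601818-20601967, + strand: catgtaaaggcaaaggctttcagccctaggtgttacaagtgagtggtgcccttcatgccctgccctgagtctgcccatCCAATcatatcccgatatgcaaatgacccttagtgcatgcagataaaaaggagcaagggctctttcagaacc
Aldh1a2, chr9:71215639-71215788, + strand: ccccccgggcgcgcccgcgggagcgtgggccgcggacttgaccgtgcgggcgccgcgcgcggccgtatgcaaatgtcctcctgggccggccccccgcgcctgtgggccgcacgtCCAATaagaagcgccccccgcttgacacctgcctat
The Cyp26a1 repeat lies 32 to 16 bases before the start and reads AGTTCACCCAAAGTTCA on the other strand. In Rarb the repeat lies 53 to 37 bases before the start. A DR5 of these letters was found in 29 of 32851 mouse windows of this length (0.0883%), and in none of the other member windows. A repeat with a spacer shorter by 3 bases (DR2) was in none of the member windows and in 0.174% of all. TATAAA stood in 12.4% and CCAAT in 33.8% of all windows. The Aldh1a2 window was rich in CpG, with 40 CpG in 250 bases, against a median of 6 over all windows. The Aldh1a1 window shown had 1, and the other Aldh1a1 window, not shown, had 3 and no CCAAT. A match describes the letters only. Cyp26a1 itself stayed under 1 FPKM in all 12 libraries, and Rarb lay between 0.02 and 0.49 FPKM.

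Levels are the authors' FPKM (fragments scaled by transcript length and library total), which can be compared between genes. Their sum was 476127 to 519355 per busulfan library and 569055 to 576093 per Con library, and 12726 to 14474 genes reached 1 FPKM. The files give no depth, so counting error is not known. Con columns carry another name prefix, so a batch and the lack of treatment cannot be told apart. IMA10 replicate 3 stood apart: its profile correlated across genes at 0.918 to 0.926 with Con, but at 0.606 and 0.705 with the other IMA10 libraries. Other busulfan libraries correlated with Con at 0.368 to 0.734. This library thus lay nearer to Con than to the other IMA10 libraries. It correlated at 0.782 to 0.886 with Sa and at 0.716 to 0.834 with IMC. Its median spermatid marker level was 11.5% of Con, and its median Sertoli marker level was 386% of Con. Whether its label or its treatment holds was not tested, so every IMA10 value rests on that doubt. The labelled tissue carried its markers, with summed Sertoli marker levels of 2991 to 17557 FPKM in IMA10, 11665 to 13826 in IMC, 9185 to 11425 in Sa and 590 to 685 in Con. Epididymis markers summed to at most 1 FPKM and liver markers to at most 1.59 FPKM in any library.

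Differences were tested on log2(FPKM + 1) with limma over the 15472 genes that reached 1 FPKM in at least 3 libraries, and a Benjamini-Hochberg adjusted p under 0.05 counts as changed. On this scale the change of low genes is understated. Of the 9 genes, 8 passed the filter and Cyp26a1 did not. In Sa against Con, 6 of the 8 rose and 0 fell, where 52.0% of all tested genes rose and 19.2% fell. The members' median log2 difference was 2.05, against 0.60 over all genes. All Sa libraries lay above all Con libraries for 7 and below for 1, as for 56.9% and 31.3% of all genes. In IMC against Con 5 rose and 0 fell (50.8% and 23.3% of all genes), with a median of 2.10 against 0.52. There 7 lay above and 1 below with no overlap (55.1% and 33.2%). In IMA10 against Con 5 rose and 0 fell (47.7% and 23.9% of all genes), with a median of 1.56 against 0.41, and 5 lay above and 0 below with no overlap (49.3% and 18.1%). The 3 comparisons share the Con libraries. With this many genes called, the counts alone do not set the members apart. FPKM gives shares of a library, and 52.0% of all genes rose in Sa relative to Con. Median-of-ratios scaling moved the all-gene median in Sa against Con to -0.02, with 5831 genes higher and 6060 lower in place of 8052 and 2963. Quantile normalization gave 5699 and 4514.

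**Figure D1:**
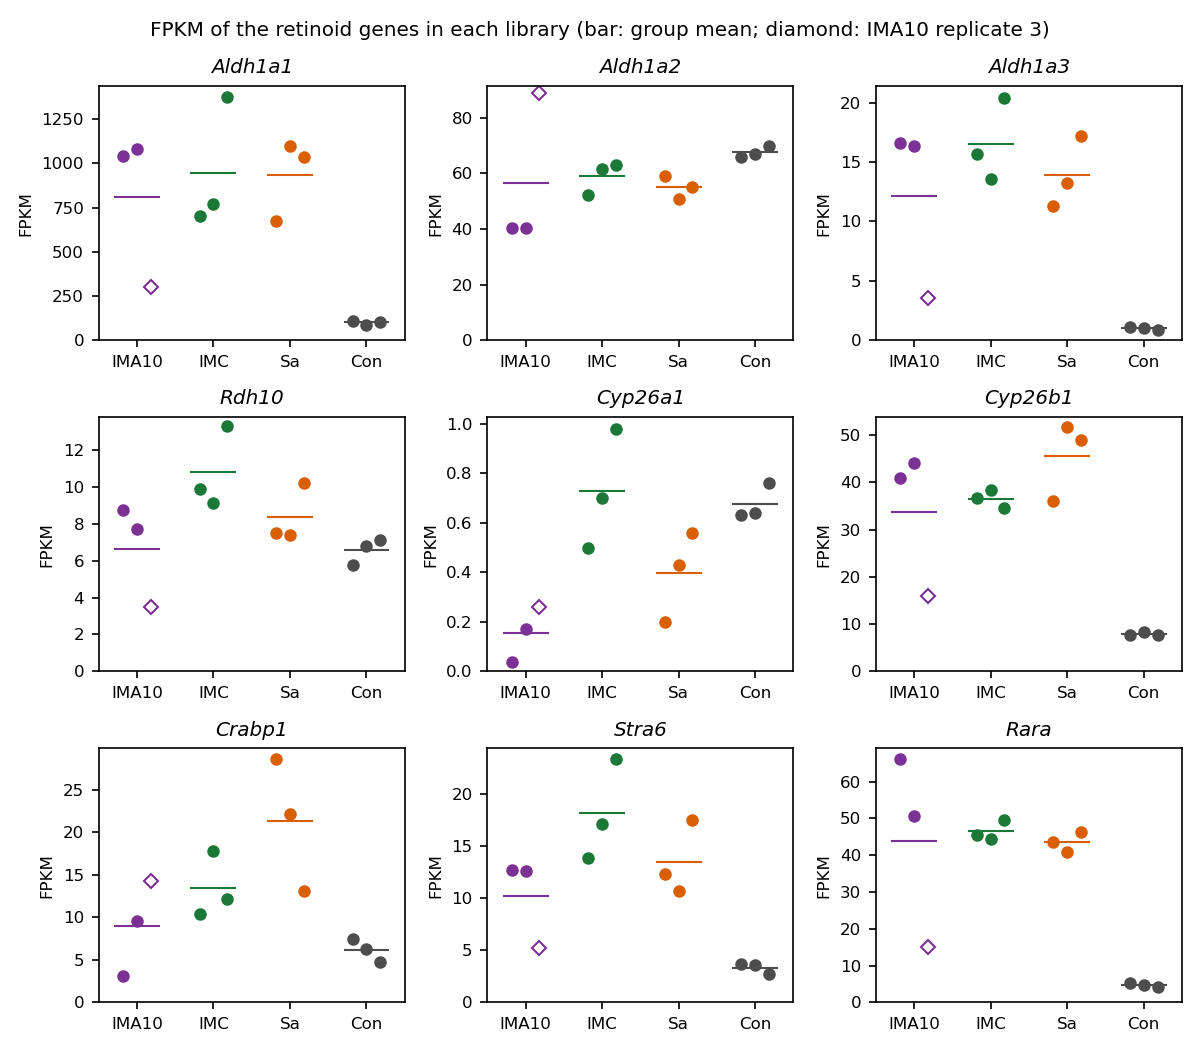
FPKM of each of the 9 genes (vertical axes, each from 0) in the 3 libraries of IMA10, IMC, Sa and Con, with bars at the group means. Aldh1a1, Aldh1a3, Cyp26b1, Stra6 and Rara lay above Con in all busulfan libraries, Aldh1a2 lay between 40.3 and 88.9 FPKM, and IMA10 replicate 3 (diamond) lay nearest to Con for those 5 genes.

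Among the synthesis enzymes, Aldh1a1, a retinaldehyde dehydrogenase, was the most abundant of the 9 genes in every library. It had 673, 1097 and 1035 FPKM in Sa, against 112, 89.1 and 106 FPKM in Con. All Sa libraries lay above all Con libraries, and the log2 difference was 3.15 ± 0.46 (SE; limma, Benjamini-Hochberg adjusted p = 0.000368). That was larger than the difference of 96.7% of all genes. The 3 genes that overlap Aldh1a1 in RefSeq were not in the rows used here.

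Aldh1a3, a second isozyme, had 11.3, 13.3 and 17.2 FPKM in Sa, against 1.13, 1.04 and 0.85 FPKM in Con. It was close to the filter's limit in Con and well above it after busulfan, with no overlap. The log2 difference was 2.88 ± 0.45 (limma adjusted p = 0.000416).

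Aldh1a2, the isozyme placed in germ cells, did not follow them. It had 59.2, 50.9 and 55.0 FPKM in Sa, against 65.9, 66.9 and 70.0 FPKM in Con. All Sa libraries lay slightly below all Con libraries, but the log2 difference of -0.29 ± 0.27 did not pass (limma adjusted p = 0.333). It passed without IMA10 replicate 3, whose spread enters the shared error (adjusted p = 0.0123), where 55.5% of all genes were called higher and 30.0% lower, in a fit of Sa and Con alone (0.0195), and with median-of-ratios scaling (-1.09, adjusted p = 0.0105). Relative to the all-gene median of 0.60, Aldh1a2 ranked above 31.9% of genes.

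Rdh10, which makes the retinaldehyde that these enzymes use, had 7.48, 7.41 and 10.2 FPKM in Sa, against 5.74, 6.81 and 7.11 FPKM in Con. Groups did not overlap, yet the log2 difference of 0.30 ± 0.29 did not pass (limma adjusted p = 0.355) and turned to -0.41 with either other scaling.

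The make-up of the Aldh1a transcripts differed after busulfan. Aldh1a2 held 7.95%, 4.38% and 4.97% of the summed Aldh1a FPKM in Sa, against 36.9%, 42.6% and 39.6% in Con. In IMA10 it held 3.68%, 3.55% and, in replicate 3, 22.4%, and in IMC 6.79%, 7.29% and 4.34%. The ratio of Aldh1a1 to Aldh1a2 was 3.42 to 26.8 over the busulfan libraries and 1.33 to 1.69 in Con, with no overlap. Such a ratio is the same under any single factor that scales a whole library. The difference in the log2 ratio, with 1 added to each level, was 3.30 between the 9 busulfan and 3 Con libraries (exact two-sided permutation p = 0.00909, the smallest this design can give, and 0.00909 adjusted over 2 ratios). It was 3.57 without IMA10 replicate 3. For Sa alone against Con it was 3.45, with exact p = 0.1, the smallest that 3 against 3 can give, and 3.78 with quantile normalization. In Sa against Con 56.9% of all genes lay above and 31.3% below with no overlap. How often ratios of other gene pairs separate the groups in this way was not tested.

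**Figure D2:**
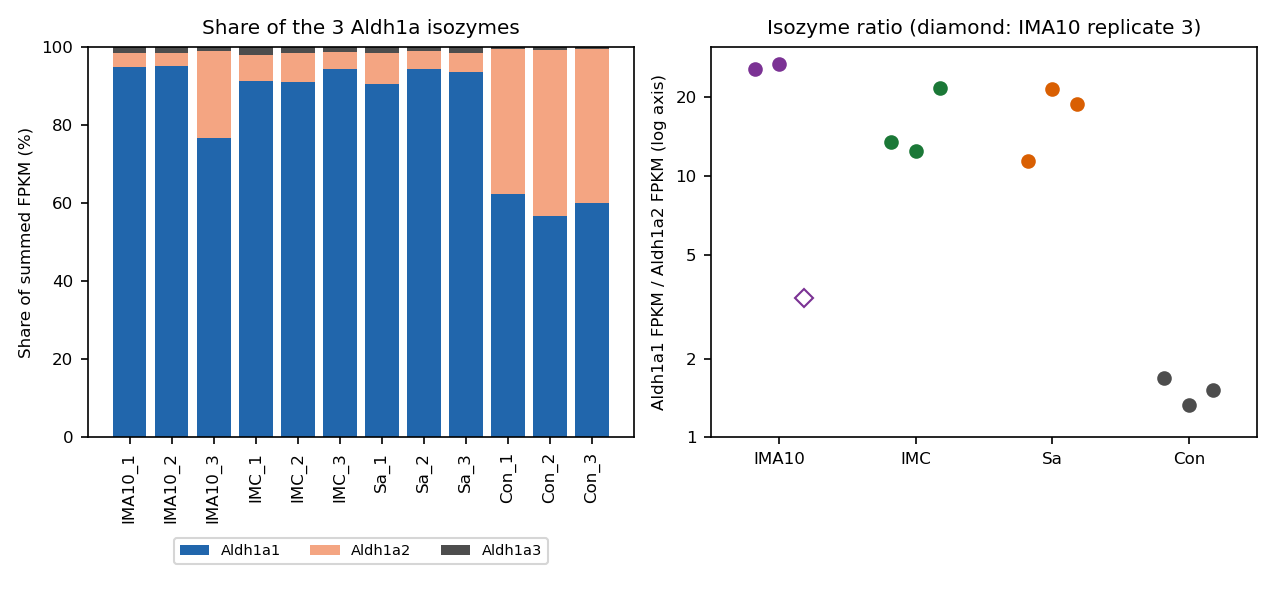
Left, share of each isozyme in the summed Aldh1a FPKM of each library (percent). Right, ratio of Aldh1a1 to Aldh1a2 FPKM on a log axis, 1 point per library in IMA10, IMC, Sa and Con. Aldh1a2 held 36.9% to 42.6% in Con and at most 7.95% in the busulfan libraries other than IMA10 replicate 3 (diamond), which had 22.4%.

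Among the enzymes that degrade retinoic acid, Cyp26b1 had 36.1, 51.6 and 49.0 FPKM in Sa, against 7.70, 8.31 and 7.76 FPKM in Con. Every Sa library was more than 4 times any Con library, and the log2 difference was 2.37 ± 0.33 (limma adjusted p = 0.000358). Cyp26a1 was low throughout, with 0.20, 0.43 and 0.56 FPKM in Sa, against 0.63, 0.64 and 0.76 FPKM in Con. It had 0.04, 0.17 and 0.26 FPKM in IMA10 and 0.50, 0.70 and 0.98 FPKM in IMC. In a fit with no filter, Cyp26a1 fell in IMA10 against Con by 0.54 ± 0.12 on the log2 scale (limma adjusted p = 0.00499), while in Sa against Con it was at -0.27 ± 0.12 (0.0836). All IMA10 libraries lay below all IMC and all Con libraries, and at these levels the table's 2 decimals limit the values. Cyp26b1 held 97.3% to 99.9% of the summed Cyp26 FPKM in busulfan libraries and 91.1% to 92.9% in Con.

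The summed Aldh1a level over the summed Cyp26 level was 20.5 to 40.9 over the busulfan libraries and 17.6 to 21.4 in Con, and the ranges overlapped. With 1 added to each sum the log2 ratio differed by 0.41 (exact two-sided permutation p = 0.00909, adjusted 0.00909), and with 0.1 added by 0.32 (exact p = 0.0455). With 1 added the log2 ratios no longer overlapped (4.32 to 5.31 against 3.99 to 4.27). The added 1 weighs most on the low Cyp26 sums of Con, 8.33 to 8.95 FPKM. The smallest p with the authors' scaling thus rests on the number added, not on separate ratios. With quantile normalization it differed by 1.13 (exact p = 0.00909), so the size of this difference depends on the scaling. For Sa alone against Con the log2 ratio differed by 0.25 (exact p = 0.1, the smallest that 3 against 3 can give), by 0.14 with 0.1 added (exact p = 0.3) and by 1.10 with quantile normalization (exact p = 0.1). IMC replicate 3 held the highest ratio, 40.9, and the difference without it was 0.32.

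Crabp1 had 28.7, 22.2 and 13.1 FPKM in Sa, against 7.5, 6.34 and 4.75 FPKM in Con. It rose by 1.59 ± 0.45 on the log2 scale (limma adjusted p = 0.00999), with no overlap, but did not pass with median-of-ratios scaling (0.86, adjusted p = 0.108). Stra6 had 12.3, 10.8 and 17.5 FPKM in Sa, against 3.71, 3.58 and 2.72 FPKM in Con. Its log2 difference was 1.72 ± 0.33 (limma adjusted p = 0.00107). Ccdc33 overlaps Stra6 in the annotation and no counting strand is stated. Ccdc33 was far lower in Sa, at a mean of 5.02 FPKM, than in Con, at 77.7 FPKM, so its level moved opposite to that of Stra6. Rara had 43.6, 40.9 and 46.2 FPKM in Sa, against 5.26, 4.75 and 4.12 FPKM in Con. The groups lay far apart, with a log2 difference of 2.97 ± 0.42 (limma adjusted p = 0.000361), above that of 95.1% of genes. The overlapping Gm46294 averaged 0.56 FPKM in Sa and 0.76 FPKM in Con.

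In Sa the order of mean levels was Aldh1a1 (935 ± 229 FPKM, SD, n = 3), Aldh1a2 (55.0 ± 4.1), Cyp26b1 (45.6 ± 8.3), Rara (43.6 ± 2.7), Crabp1 (21.3 ± 7.8), Aldh1a3 (13.9 ± 3.0), Stra6 (13.5 ± 3.5), Rdh10 (8.36 ± 1.59) and Cyp26a1 (0.40 ± 0.18). The ranges of Aldh1a2 and Cyp26b1, of Cyp26b1 and Rara, of Crabp1 and Aldh1a3, and of Aldh1a3 and Stra6 overlapped. In Con the order was Aldh1a1 (102 ± 12), Aldh1a2 (67.6 ± 2.1), Cyp26b1 (7.92 ± 0.34), Rdh10 (6.55 ± 0.72), Crabp1 (6.20 ± 1.38), Rara (4.71 ± 0.57), Stra6 (3.34 ± 0.54), Aldh1a3 (1.01 ± 0.14) and Cyp26a1 (0.68 ± 0.07). The ranges of Rdh10 and Crabp1, and of Crabp1 and Rara, overlapped. The range of Rara overlapped that of Cyp26b1 in Sa and lay below it in Con.

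Cell type markers also differed between Sa and Con, some lists upward and others downward. In Sa against Con all 18 Sertoli and all 10 Leydig markers rose, with median log2 differences of 3.43 and 3.33, as did 9 of 9 macrophage and 7 of 7 endothelial markers. Of 8 peritubular myoid markers 7 rose and 1 fell. Of 13 tested spermatogonia markers 9 rose and 0 fell, with a median of 1.29, and of 12 spermatid markers 11 fell and 0 rose, with a median of -4.85. Of 12 spermatocyte markers 1 rose and 2 fell. Zbtb16, Ret, Amh, Adgre1 and Tek were under 1 FPKM in every Con library. They passed the filter through the busulfan libraries alone, so the filter favoured a rise for them. In bulk tissue, fewer cells of a type and less RNA per cell cannot be told apart, and the part of cell make-up in the differences was not tested.

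**Figure D3:**
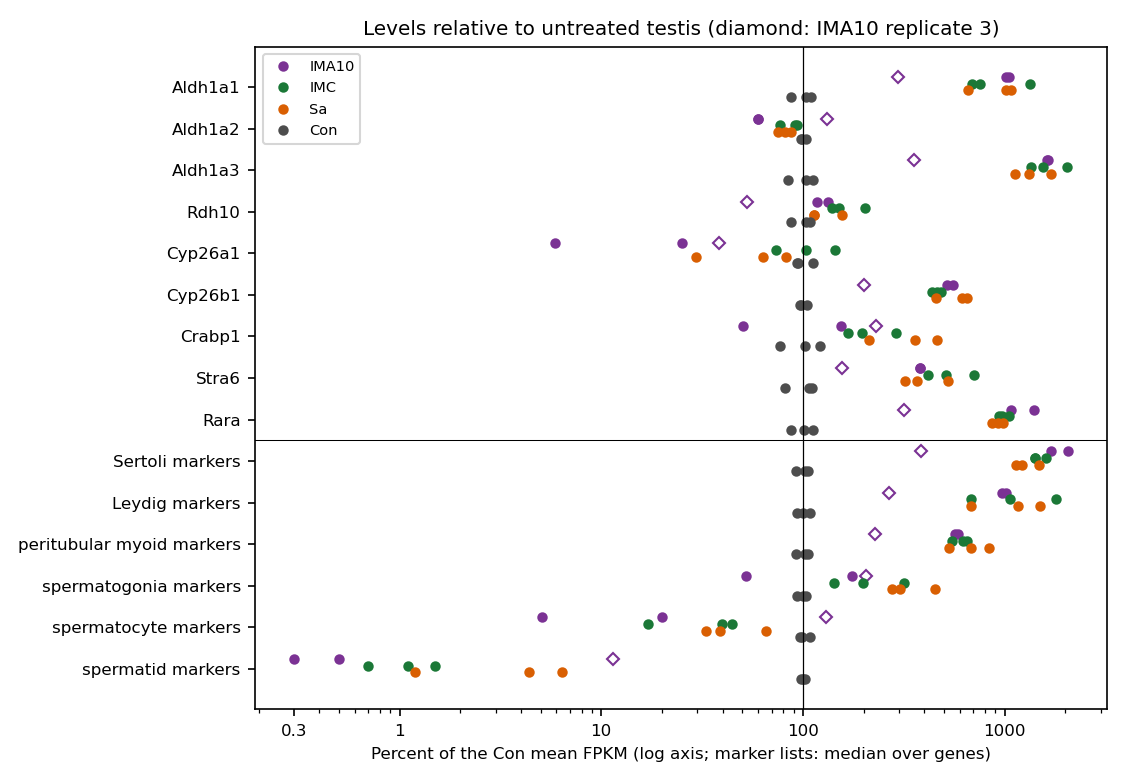
Level of each gene, and median level of each marker list, in each library as percent of the Con mean (log axis), with IMA10, IMC, Sa and Con as rows of points. Aldh1a1, Aldh1a3 and Rara lay above Con in busulfan libraries, as did the Sertoli, Leydig and peritubular myoid lists. Aldh1a2 stayed between 59.6% and 132%, and the spermatid list was at 11.5% or less in busulfan libraries. The macrophage and endothelial lists, not drawn, had medians of 642% to 959% and 488% to 862% in Sa.

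Among the 8 busulfan libraries without IMA10 replicate 3, the genes differed in how much they varied. Crabp1 varied most of the 8 genes that passed the filter, from 3.14 FPKM in IMA10 replicate 1 to 28.7 FPKM in Sa replicate 1 (CV 54.7%), and Cyp26b1 least, from 34.6 to 51.6 FPKM (CV 15.1%). IMC replicate 3 held the highest value of 6 of the 9 genes, among them Aldh1a1 at 1372 FPKM. The same library had the highest summed Leydig marker level, 13929 FPKM, where the other 7 had 4435 to 9199. Insl3 alone made up 10883 FPKM of that sum. Not all Leydig markers peaked there: Cyp17a1, Hsd3b6, Lhcgr and Fdx1 were highest in Sa replicate 2. Over these 8 libraries, which share 1 table and its scaling, log2 levels of Aldh1a1 followed the Leydig sum (Pearson r = 0.936) and those of Rara followed the Sertoli sum (r = 0.917). Crabp1 followed the sums of all 3 germ cell lists, spermatogonia (r = 0.941), spermatocyte (r = 0.940) and spermatid (r = 0.902), and ran opposite to the Sertoli sum (r = -0.949). The pairs named are a selection from those between the 9 genes and the cell type lists. Rara also ran opposite to the spermatocyte sum (r = -0.967). Not every gene followed a list: the highest r was 0.358 for Cyp26b1 (endothelial), 0.506 for Rdh10 and 0.527 for Stra6 (both Leydig). The marker sums weigh the most abundant markers most, such as Insl3 for Leydig, Clu for Sertoli, and Uchl1 and Dmrtb1 for spermatogonia.

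Crabp1 was set beside the 9 listed genes linked to retinoic acid in spermatogonia. Stra8, one of them, which retinoic acid induces ahead of meiosis, had 40.8, 26.5 and 23.4 FPKM in Sa and 7.80, 8.70 and 7.52 FPKM in Con. In IMA10 it had 3.68, 13.6 and 16.2 FPKM and in IMC 18.3, 35.7 and 12.1 FPKM. The library with the least Stra8, IMA10 replicate 1, also had the least Crabp1, and the library with the most, Sa replicate 1, the most. Pearson r of log2 levels between Crabp1 and Stra8 was 0.947 over the 8 busulfan libraries and 0.968 for Sohlh1, a spermatogonial transcription factor. Not all of the 9 ran with it: r was 0.694 for Kit, a receptor of differentiating spermatogonia, and 0.215 for the cyclin gene Ccnd2. Kit was highest in Sa replicate 2 (27.3 FPKM) and IMC replicate 3 (19.3 FPKM). Those libraries also had the highest Leydig sums, 9199 and 13929 FPKM, so its level may not come from spermatogonia alone. The correlations are descriptions over few libraries.

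**Figure D4:**
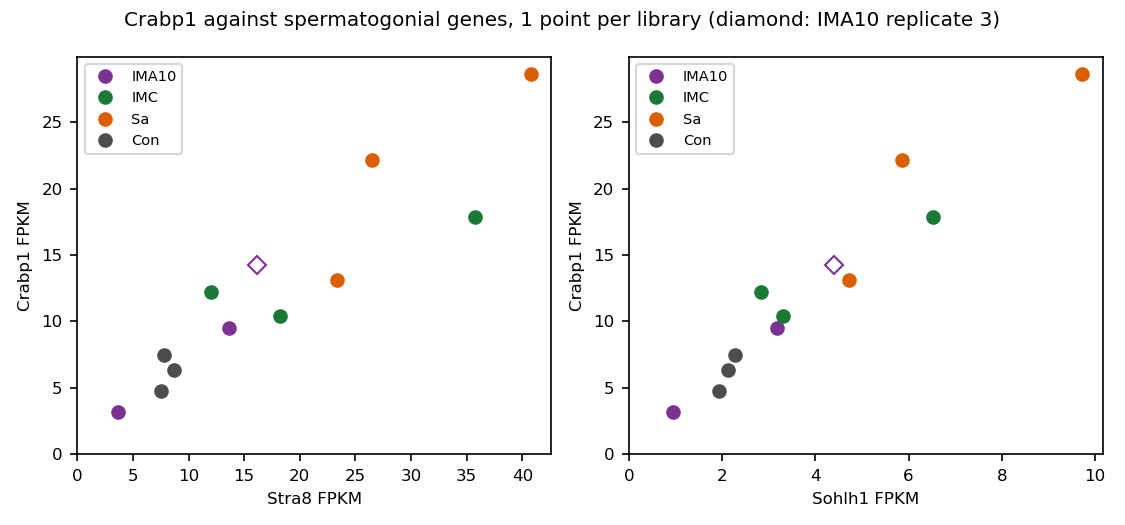
Crabp1 FPKM against Stra8 FPKM (left) and Sohlh1 FPKM (right), 1 point per library of IMA10, IMC, Sa and Con. Both pairs run from IMA10 replicate 1 at the low end (Crabp1 3.14 FPKM) to Sa replicate 1 at the high end (28.7 FPKM), and IMA10 replicate 3 (diamond) lies among the rest.

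By correlation of log2 levels over all 12 libraries, among 9655 named genes of at least 5 FPKM on average, the nearest genes were the following. For Rara they were Gnai2, Dtx1 and Septin9 (r = 0.999 or more), for Aldh1a3 Pcyox1, Mat2b and App (0.999), and for Aldh1a1 Gstm1, Idh1 and Acat1 (0.997 or 0.996). Cyp26b1 lay nearest to Islr, Adcy7 and Mylk (0.996 to 0.997) and Stra6 to Ccnjl, Fstl3 and Ripk3 (0.988 to 0.995). Crabp1 lay nearest to Parp12, Tcf7 and Cdca7 (0.977 to 0.981), Aldh1a2 to Aopep, Aars and Gtf2ird1 (0.927 to 0.936) and Rdh10 to Sdc3, Tuba1c and Rnpepl1 (0.914 to 0.924). Over the 9 busulfan libraries the same pairs had r of 0.916 to 0.998, and over the 8 without IMA10 replicate 3 they had 0.646 to 0.993, lowest for Rdh10 with Rnpepl1 and highest for Crabp1 with Tcf7.

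The microbiota groups were compared with Sa and with each other. Of the 8 tested genes, 0 changed in IMC against Sa, IMA10 against Sa or IMA10 against IMC, where limma called 0 of all 15472 genes (0.0%). At an unadjusted p under 0.05, 134, 928 and 328 of all genes were found. The members' median was 0.09 in IMC against Sa, -0.39 in IMA10 against Sa and -0.50 in IMA10 against IMC, where all genes had -0.06, -0.19 and -0.14. No member separated IMC from Sa, where 3.32% of all genes were higher and 6.02% lower with no overlap. None separated IMA10 from Sa either (0.633% higher and 7.17% lower). The largest member difference in IMC against Sa was that of Crabp1, at -0.59 ± 0.45.

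In IMA10 Aldh1a1 had 1040, 1080 and, in replicate 3, 304 FPKM, and in IMC it had 703, 768 and 1372 FPKM. Rara had 66.0, 50.5 and 14.9 FPKM in IMA10, and 45.5, 44.4 and 49.6 FPKM in IMC. Crabp1 had 3.14, 9.52 and 14.3 FPKM in IMA10, and 10.4, 17.8 and 12.2 FPKM in IMC. For Aldh1a1 and Rara the first 2 IMA10 libraries lay among or above the IMC and Sa libraries and replicate 3 lay nearer Con. For Crabp1 replicate 3 had the highest IMA10 value.

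Stra6 had 12.7, 12.6 and 5.21 FPKM in IMA10, against 13.9, 17.1 and 23.4 FPKM in IMC. Rdh10 had 8.76, 7.69 and 3.47 FPKM in IMA10, against 9.89, 9.13 and 13.3 FPKM in IMC. These were the 2 of 8 tested members whose IMA10 libraries all lay below IMC, as for 2.88% of all genes, and 0 lay above (0.478%). Without IMA10 replicate 3, limma called 0.0% of all genes higher and 0.0129% lower in this comparison. Neither passed: the differences were -0.84 ± 0.33 for Stra6 and -0.69 ± 0.29 for Rdh10 (limma adjusted p = 1 for both), and without IMA10 replicate 3 -0.46 ± 0.24 and -0.34 ± 0.18 (0.253 and 0.277).

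IMA10 replicate 3 decided the comparison of IMA10 with Sa. With it, Crabp1 was at -1.29 ± 0.45 (limma adjusted p = 0.682), Aldh1a2 at -0.06 ± 0.27 and Rara at -0.23 ± 0.42. Without it, Crabp1 fell by 1.69 ± 0.42 (adjusted p = 0.0176), Aldh1a2 fell by 0.43 ± 0.10 (0.0156) and Rara rose by 0.40 ± 0.13 (0.0449). Then 24.5% of all genes were lower and 7.34% higher, and IMA10 had 2 libraries. IMA10 replicates 1 and 2 had summed Sertoli markers of 17557 and 13811 FPKM, against 9185 to 11425 FPKM in Sa. Their summed spermatogonia markers were 184 and 260 FPKM, against 368 to 472 FPKM in Sa and 615 to 652 FPKM in Con. Dmrtb1 and Ddx4 made up most of the Con sum (means of 419 and 148 FPKM). Both were lower in Sa (95.4 and 54.2 FPKM), unlike most of the list. The median level of the list was 52.1% and 175% of Con in these IMA10 libraries, against 276% to 451% in Sa. The part of these markers in the differences was not tested. Against Con, leaving out IMA10 replicate 3 took Aldh1a2 in IMA10 to -0.73 ± 0.10 (limma adjusted p = 7.03e-05), where 51.5% of all genes were called higher and 35.1% lower.

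Against Con, Aldh1a1, Aldh1a3, Cyp26b1, Stra6 and Rara rose in each busulfan group. In IMA10 their log2 differences were 2.77 ± 0.46, 2.48 ± 0.45, 1.83 ± 0.33, 1.29 ± 0.33 and 2.74 ± 0.42, with limma adjusted p from 0.000948 to 0.00643. In IMC they were 3.14 ± 0.46, 3.11 ± 0.45, 2.07 ± 0.33, 2.12 ± 0.33 and 3.06 ± 0.42, with adjusted p from 0.000308 to 0.000379. Stra6 in IMA10 did not pass with quantile normalization (0.88, adjusted p = 0.051). Crabp1 passed in Sa, at 1.59, but not in IMC, at 0.99 ± 0.45 (0.0685), or IMA10, at 0.30 ± 0.45 (0.565). Without IMA10 replicate 3, Crabp1 and Rdh10 also rose in IMC against Con (limma adjusted p = 0.0296 and 0.00462), where 53.5% of all genes were called higher and 32.3% lower.

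**Figure D5:**
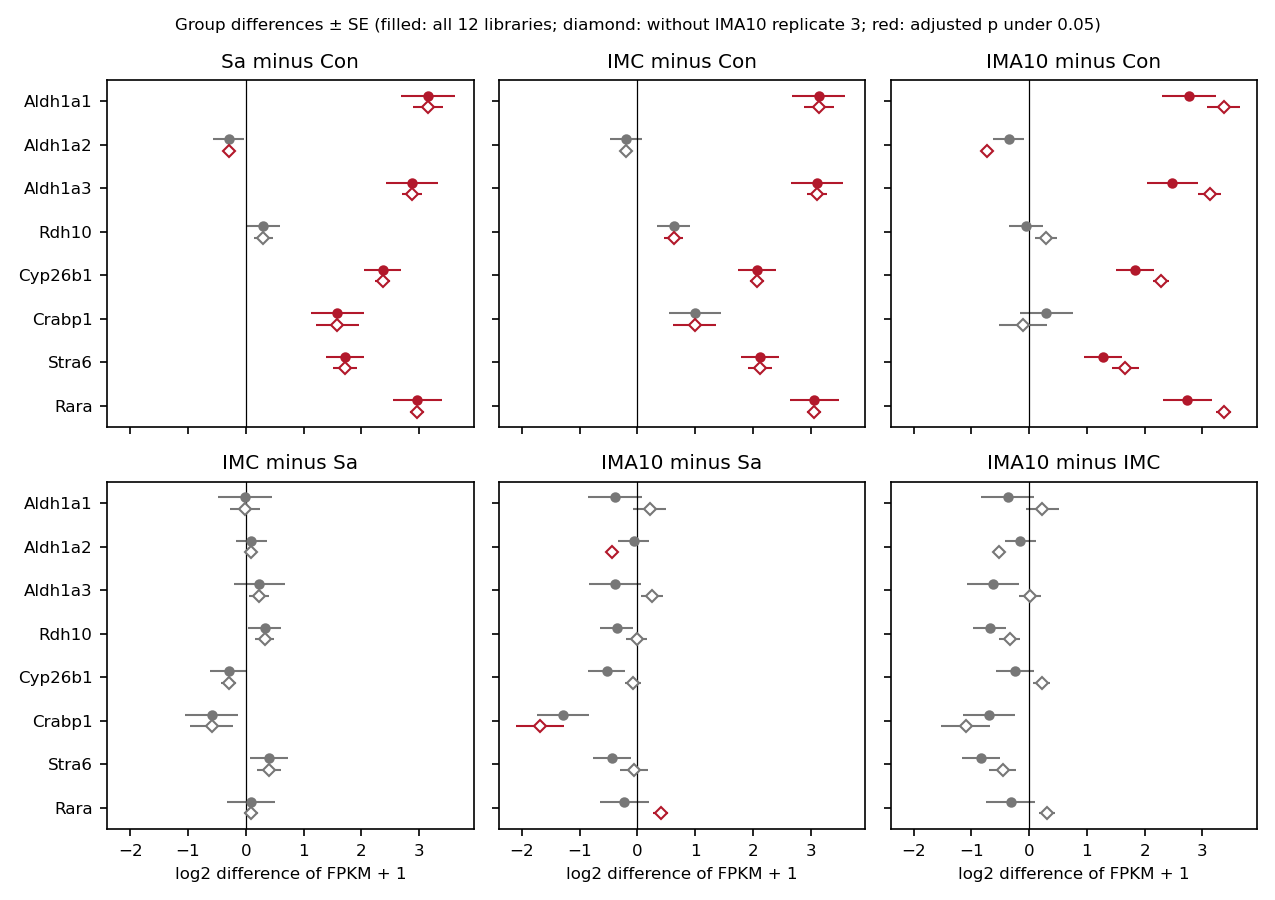
log2 difference of FPKM + 1 (horizontal axes) with SE for 8 genes in the 6 comparisons, with all 12 libraries (filled) and without IMA10 replicate 3 (open diamonds). Red marks adjusted p under 0.05: 5 or 6 of 8 rose against Con, and none passed between busulfan groups until IMA10 replicate 3 was left out.

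The wider pathway was listed as 64 further genes, of which 63 were in the table and 44 were tested. In Sa against Con 31 rose and 5 fell, where 52.0% of all genes rose and 19.2% fell, and the median was 1.26 against 0.60. In IMC against Con 26 rose and 6 fell (50.8% and 23.3% of all genes). In IMA10 against Con 22 rose and 6 fell (47.7% and 23.9%), with 22 of 44 near the all-gene share. The counts by role below are for Sa against Con and stand against the same all-gene shares. Between busulfan groups 0 changed. Of 4 tested carriers and uptake genes 3 rose and 0 fell. Genes of retinyl ester storage and release ran the other way: 3 of 4 fell and 0 rose. Lipe, a lipase that releases retinol from esters, had 14.0, 12.5 and 8.0 FPKM in Sa against 153, 144 and 144 FPKM in Con. Its log2 difference was -3.60 ± 0.46. Pnpla2, another lipase, was at -1.14 ± 0.39 (limma adjusted p = 0.0227), and at 0.0674 with quantile normalization or up to 0.0645 without single libraries (Sa replicate 2 or 3, Con replicate 1 or 2).

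Of 11 tested genes listed for steps to and from retinol and retinaldehyde, 7 rose and 1 fell. Rdh13, with 0.52 to 0.88 FPKM in Con, passed the filter through the busulfan libraries alone. Retsat, the retinol saturase, rose by 3.79 ± 0.56, and Bco1, which cleaves beta-carotene to retinaldehyde, fell by 3.08 ± 0.41. Of 2 other enzymes Cyp2s1 was at 2.21 ± 0.45, but it had 0.24 to 0.46 FPKM in Con and passed the filter through the busulfan libraries alone, and Cyp1b1, at 0.87 ± 0.46, did not pass (limma adjusted p = 0.11). Fabp5, which can carry retinoic acid, rose by 4.45 ± 0.58, more than 99.9% of all genes. Of 6 listed receptor genes 4 were tested and all 4 rose, among them Rxrb by 1.56 ± 0.34 (limma adjusted p = 0.0563 with quantile normalization). The untested Rxrg and Rarb had low means of 0.13 and 0.16 FPKM in Sa, against 0.81 and 0.32 FPKM in Con. Of 9 co-regulators 8 rose, with a median of 0.97 against 0.60 over all genes, among them the co-activator Ncoa2 by 2.00 ± 0.43. Of 9 genes linked to retinoic acid in spermatogonia 7 rose and 1 fell. Kit, Stra8, Sohlh1 and Sohlh2 also stand in the spermatogonia marker list, so these counts and those of the markers share genes. Ccnd2, with 0.70 to 0.89 FPKM in Con, passed the filter through the busulfan libraries alone. Kit rose by 2.37 ± 0.30, and Rec8, a meiotic cohesin, was at -1.87 ± 0.62 (limma adjusted p = 0.0202, and 0.0504 to 0.0621 without Sa replicate 2, Sa replicate 3 or Con replicate 1).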

How the data were processed

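Testis RNA was sequenced in 12 libraries of 4 groups, taken with their replicate numbers from the sample labels. The deposited table holds the authors' FPKM values with 2 decimals, per the file headers. Not given in the sources used here are the aligner, counting program, build, annotation, strand setting and gene filter. Gene IDs were matched to symbols through a RefSeq table (GRCm38.p6), 20141 of 20288. Low FPKM values can move with rounding, and a loss of abundant transcripts raises the FPKM of others.

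All libraries were fitted together in limma 3.58.1 (R 4.3.3) on log2(FPKM + 1) with a variance trend and 1 mean per group, on genes with at least 1 FPKM in 3 libraries. Benjamini-Hochberg adjustment ran over all 15472 genes. Ratios within libraries were compared by exact permutation (SciPy 1.17.1). The procedure was tested on simulated data. The members and lists were chosen with earlier results of these data known. Named pathway genes are, per role, the highest level and the largest called rise and fall in Sa minus Con. Stra8, Sohlh1, Sohlh2, Ccnd2, Ccdc33, Gm46294, Rarb, Rxrg and Rdh13 were named in addition, after their values were seen. Some genes that the rule names are not reported here. Alternatives were median-of-ratios scaling, quantile normalization, a pseudocount of 0.1, dropping the filter or raising it to 5 FPKM, fitting the compared groups alone, a block for the replicate number, and leaving out each library.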

Additional observations from a re-analysis of the deposited data

How the results depend on the processing

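The number of members that rose against Con stayed at 6 for Sa and 5 for IMA10 without each single library, and was 5 to 7 for IMC. Of all 15472 genes, 7564 to 8583 rose in Sa, 6319 to 7962 in IMA10 and 7406 to 8280 in IMC in these fits. The number of members that fell, 0 with all libraries, was 1 with median-of-ratios scaling in Sa, IMC and IMA10 against Con. There 6060, 6276 and 5736 of 15472 genes fell. In a fit of only Sa and Con the number was also 1, where 4765 of all genes fell. With no filter it was 1 for IMA10 against Con, where 4142 of 21798 genes fell. Leaving out single libraries gave 0 to 1 members that fell in Sa and IMA10 against Con, where 2018 to 4648 and 2177 to 5438 of all genes fell. In IMA10 against Sa leaving out single libraries gave 0 to 1 members that rose and 0 to 2 that fell, where IMA10 replicate 3 alone moved the counts. Without that library 7.34% of all genes rose and 24.5% fell. With a pseudocount of 0.1 the log2 ratio of Cyp26b1 to Cyp26a1 differed from Con by 2.99 in the busulfan libraries and by 3.21 in Sa, against 2.35 and 2.64 with 1. Scaling turned the sign of small differences. With median-of-ratios scaling Rdh10 was at -0.41 in Sa and -0.015 in IMC against Con, Crabp1 at -0.19 in IMA10 against Con, Aldh1a1 at 0.067 in IMC against Sa, and Aldh1a2 and Rara at 0.18 and 0.007 in IMA10 against Sa. With quantile normalization Rdh10 was at -0.41 in Sa, Aldh1a2 at 0.004 in IMC and Crabp1 at -0.058 in IMA10, each against Con. Without single libraries, Rdh10 and Crabp1 ran from -0.27 to 0.29 and from -0.11 to 0.83 in IMA10 against Con, and Aldh1a1 from -0.32 to 0.17 in IMC against Sa. In IMA10 against Sa, Aldh1a1 ran from -0.70 to 0.21, Aldh1a2 from -0.44 to 0.13, Aldh1a3 from -0.72 to 0.25 and Rara from -0.64 to 0.40. In IMA10 against IMC, Cyp26b1 ran from -0.49 to 0.21, Aldh1a1 from -0.69 to 0.23, Aldh1a2 from -0.53 to 0.031, Aldh1a3 from -0.96 to 0.011 and Rara from -0.73 to 0.31. The cause was not tested. Whether replicate numbers pair the libraries is not known. Of 18 correlations of same-numbered deviations 5 were over 0.1 (range -0.765 to 0.546). They cannot decide it, since each rests on deviations from means of 3 libraries. With the replicate block 6 members rose in Sa against Con, as without it, and 7820 of 15472 genes rose. The files hold no counts, so the depth behind low values such as those of Cyp26a1 is unknown.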
